A study of Homo sapiens with 12 samples.

Results

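The mitosis and spindle genes are 38 genes whose products drive cell division, from the kinases that start mitosis to the proteins that pull the chromosomes apart and cut the cells in 2. They were found by matching their GENCODE symbols to the Ensembl identifiers of the count files, which gave all 38 among 60675 listed genes. RNA was sequenced from SUDHL6 and SUDHL16, human diffuse large B-cell lymphoma (DLBCL) lines that are sensitive to venetoclax (ABT-199), an inhibitor of the anti-apoptotic protein BCL2, and from a resistant line derived from each. The resistant lines had been raised by long exposure to increasing venetoclax, grew at 10 times the original IC50, and were maintained in the drug, then placed in fresh medium for experiments, and each parental line has 1 resistant line. There were 3 libraries in each of the 4 groups: CE-7, CE-8 and CE-9 from SUDHL6 parental cells, CE-10, CE-11 and CE-12 from SUDHL6 resistant cells, CE-25, CE-26 and CE-27 from SUDHL16 parental cells, and CE-28, CE-29 and CE-30 from SUDHL16 resistant cells. Nothing in the labels says that libraries of a group came from separate cultures, so the p-values measure the spread between these libraries, which may be technical. The question was whether acquired resistance went with a change of this program, asked within each line because kit and sequencer differed between SUDHL6 and SUDHL16.

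A dividing cell enters mitosis when cyclin B binds and activates the kinase CDK1, with the kinases PLK1 and AURKA building the spindle. The spindle checkpoint holds the cell until every chromosome is attached through its kinetochore to microtubules. The anaphase-promoting complex with its activator CDC20 then destroys cyclin B and securin, separase cuts the link between sister chromatids, and the central spindle and contractile ring divide the cell. Most of these genes are transcribed in G2 and mitosis. Their promoters often carry a CCAAT box together with a cell-cycle genes homology region (CHR). Through the CHR the MuvB complex acts, with B-MYB or FOXM1 or as part of the DREAM complex. In bulk samples their level is commonly read as a measure of proliferation. In bulk RNA, a larger share of cells in G2 and mitosis and more RNA per such cell cannot be told apart.

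Promoter sequence is shown for members that the SUDHL16 results turn on, and for CENPE, whose change differed between the lines. RefSeq promoter windows (build GRCh38.p14, from 250 bases before to 50 bases after the start) were available for 31 of the 38 genes. The windows were searched on both strands for the CHR as TTTGAA or TTCGAA and for CCAAT, and the motifs were counted separately whether or not they shared a base. The 31 genes had 37 windows. A CHR match was present in 27 of these windows, against 16.4% of all 35116 windows. CCAAT was present in 28 of 37 against 34.6%, and both in 22 of 37 against 6.38%. Counted by gene, with a match in any window, these were 24, 25 and 20 of 31. A match is only a run of letters and not a shown binding site. The stretches below are the bases before the start that lie outside every annotated exon, 5′ to 3′ on the strand of the gene, with matches to either motif in capitals. They come from chr1:43358731-43358980 (plus strand) for CDC20, chr17:40417897-40418146 (minus strand) for TOP2A, chr15:40160819-40161022 (plus strand) for BUB1B and chr4:103198446-103198593 (minus strand) for CENPE.
CDC20: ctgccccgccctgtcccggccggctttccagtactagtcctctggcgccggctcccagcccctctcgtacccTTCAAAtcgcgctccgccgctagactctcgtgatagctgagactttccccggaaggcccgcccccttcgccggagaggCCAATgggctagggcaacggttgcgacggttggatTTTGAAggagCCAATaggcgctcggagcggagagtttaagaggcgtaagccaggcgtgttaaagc
TOP2A: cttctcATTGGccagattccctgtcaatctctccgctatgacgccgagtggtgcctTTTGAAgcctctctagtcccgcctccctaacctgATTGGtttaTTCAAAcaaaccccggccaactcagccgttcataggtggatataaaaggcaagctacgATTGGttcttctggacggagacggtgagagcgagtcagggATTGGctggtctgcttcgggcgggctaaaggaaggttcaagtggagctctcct
BUB1B: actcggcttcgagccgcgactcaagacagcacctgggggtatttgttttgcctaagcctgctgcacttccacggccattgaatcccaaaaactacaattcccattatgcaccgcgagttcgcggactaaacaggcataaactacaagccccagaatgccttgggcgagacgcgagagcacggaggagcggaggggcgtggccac
CENPE: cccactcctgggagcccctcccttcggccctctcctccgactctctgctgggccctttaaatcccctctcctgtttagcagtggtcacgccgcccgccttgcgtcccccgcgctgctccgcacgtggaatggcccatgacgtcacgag
The CDC20 stretch holds 2 CHR and 2 CCAAT matches and the TOP2A stretch 2 and 4. The only match in the whole BUB1B window is 1 CHR, 23 bases before the start and past the printed stretch, and the CENPE window holds neither motif. NUSAP1 had 1 CHR and 3 CCAAT matches, and KIF20A 2 CCAAT matches, in windows that overlap annotated exons and are not printed.

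The libraries held 33992784 to 40885665 counted reads in SUDHL6 and 4131927 to 22068221 in SUDHL16, where CE-26 was the smallest. CE-26 stood apart from the others: protein-coding genes took 55.4% of its reads, compared with 84.3% to 90.2% elsewhere in SUDHL16, and its reads fell on 34938 genes, where the remaining SUDHL16 libraries covered 20896 to 24655. SUDHL16 results are therefore given with and without it. The biological coefficient of variation of edgeR was 0.0516 in SUDHL6, 0.468 in SUDHL16 and 0.339 in SUDHL16 without CE-26. Depth did not limit detection of the members, whose lowest count in any library was 24, and all 38 passed the filter on low counts in every fit. All 7 B-cell markers were present in every library, at a lowest value of 26.5 CPM (reads per gene relative to the TMM-corrected size of the library). The 15 markers of T cells, myeloid cells, epithelium and fibroblasts summed to 1.71 to 3.68 CPM in SUDHL6 and 11.4 to 66.8 CPM in SUDHL16, highest in CE-26, with 3 to 12 of them at 0. Most of that sum was DCN in CE-25 and CE-27 (19.7 CPM in each) and CD3E in the SUDHL16 resistant libraries (10.8 to 13.4 CPM). In CE-26, DCN at 25.5 CPM was the highest of several, followed by COL1A2 at 9.99, CDH1 at 6.89, CD8A at 4.82, CD3E at 4.48 and CSF1R at 3.44 CPM. The part of these markers in the results was not tested.

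In SUDHL6, most of the 38 members were slightly higher in the resistant cells. Of the 38 genes, 28 rose and 1 fell past an adjusted p of 0.05 by edgeR's quasi-likelihood test, against 17.7% and 19.7% of all 16662 genes tested, and 9 did not pass. None reached the 1.5-fold limit that a call also required (0 of 38, against 8.96% of all genes), with 33 members at an unadjusted p under 0.05, and DESeq2 gave 0 calls too. The median log2 fold change was 0.15, against -0.00 over all genes, and single values ran from -0.13 to 0.49. The groups did not overlap for 33 members, 31 higher in resistant cells (23.1% of all genes) and 2 lower (24.8%). The members took 0.527% to 0.537% of all reads in the 3 parental libraries and 0.599% to 0.605% in the 3 resistant ones. All 3 resistant libraries thus lay above all 3 parental libraries in the share of reads on these genes. In a single fit of all 12 libraries, where SUDHL6 takes on the larger spread of SUDHL16, 0 members passed the adjusted p, although the median change was the same.

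**Figure D1:**
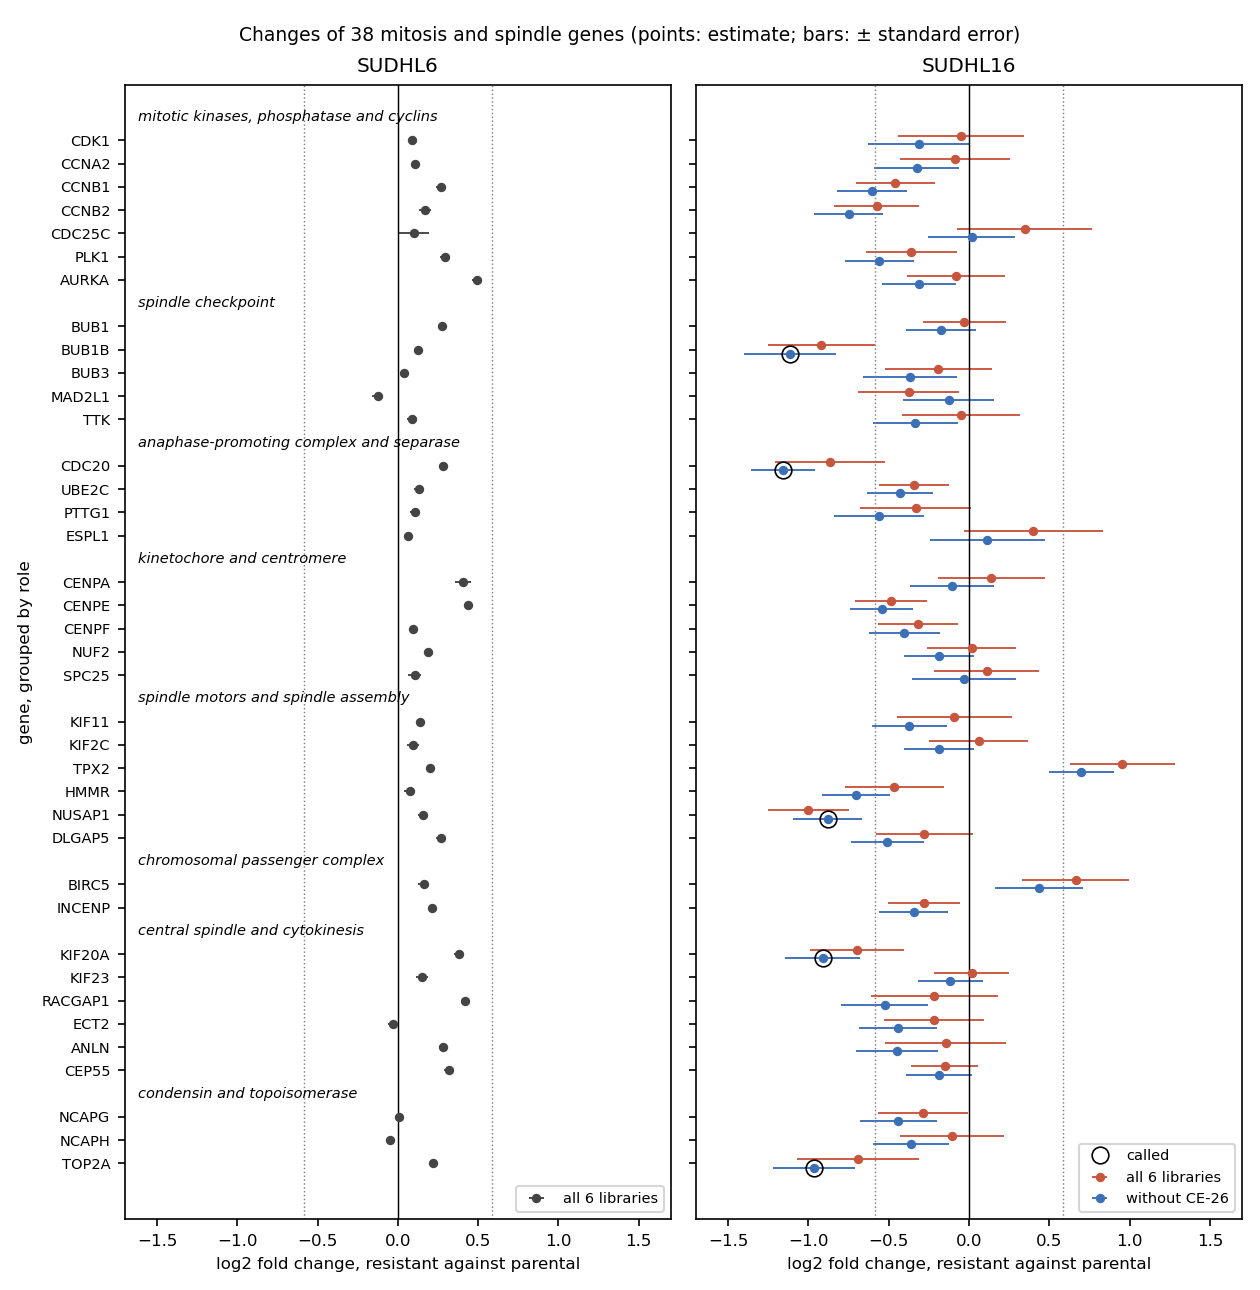
Log2 fold change of each of the 38 genes, resistant against parental, grouped by role, in SUDHL6 (left) and SUDHL16 (right, red with all 6 libraries, blue without CE-26). Points are edgeR estimates, bars ± 1 standard error, dotted lines the 1.5-fold limit and open circles called genes. SUDHL6 values lie between -0.13 and 0.49 with short bars, and the 5 circled genes are all lower in SUDHL16 without CE-26.

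Among the kinases, phosphatase and cyclins that start mitosis, 6 of 7 rose in SUDHL6. AURKA, which matures centrosomes and is a drug target, changed most of all 38 members. It measured 68.2, 72.5 and 69.5 CPM in the parental libraries and 96.6, 99.3 and 99.9 CPM in the resistant ones. The groups are well apart, with a log2 fold change of 0.49 ± 0.03 (SE) and an adjusted p of 6.3e-08 by edgeR. PLK1, a kinase needed for spindle assembly and itself a drug target, rose from 124 ± 3.63 to 152 ± 3.15 CPM (SD, n = 3), or by 0.29 on the log2 scale. CCNB1 (cyclin B1) rose by 0.27 on the log2 scale and CCNB2 by 0.17. CDK1, the kinase both cyclins activate, rose by only 0.09 (adjusted p = 0.012 by edgeR). CDC25C, the phosphatase that switches CDK1 on, was near 11 CPM in both groups and did not pass.

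The checkpoint genes moved unequally. BUB1, a checkpoint kinase at the kinetochore, rose from 147 ± 1.45 to 179 ± 3.73 CPM, BUB1B (BubR1) rose by 0.13 on the log2 scale and TTK (the kinase Mps1, a drug target) by 0.09. MAD2L1, the protein that forms the diffusible inhibitor of CDC20, was the only member that fell. Its parental values were 54.3, 56.2 and 53.6 CPM and its resistant values 48.8, 51.3 and 50.2 CPM. The groups do not overlap, and the log2 fold change was -0.13 ± 0.03 (SE, adjusted p = 0.0097 by edgeR). BUB3 did not pass.

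At the exit from mitosis, CDC20 rose from 102 ± 0.97 to 124 ± 3.05 CPM. The ubiquitin-conjugating enzyme UBE2C and PTTG1 (securin) rose by 0.13 and 0.11 on the log2 scale, and separase (ESPL1) did not pass, at 0.06. Kinetochore genes were among the strongest rises. CENPE, a kinesin that moves chromosomes to the spindle equator, measured 68.3, 65.7 and 66.8 CPM in parental and 91.0, 89.9 and 91.0 CPM in resistant libraries, a log2 fold change of 0.44 ± 0.03 (SE, adjusted p = 6.7e-08 by edgeR). CENPA, the histone H3 variant that marks centromeres, rose from 28.2 ± 0.85 to 37.4 ± 1.21 CPM. NUF2 and CENPF rose by 0.19 and 0.09, and SPC25, with NUF2 a subunit of the NDC80 complex, did not pass at 0.11.

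Of the 6 spindle motor and assembly genes, 4 rose. TPX2, which activates AURKA on the spindle, rose by 0.20 on the log2 scale, DLGAP5 by 0.27, NUSAP1 by 0.16 and KIF11 (the kinesin Eg5, a drug target) by 0.14, and KIF2C and HMMR did not pass. Both chromosomal passenger genes rose, INCENP by 0.21 and BIRC5 (survivin) by 0.16. The genes of the central spindle and cytokinesis had the highest median of any role, 0.30, with 5 of 6 past the adjusted p. RACGAP1, which forms centralspindlin with KIF23, measured 87.6, 84.8 and 88.1 CPM in parental and 117, 117 and 115 CPM in resistant libraries. That is a log2 fold change of 0.42 ± 0.03 (SE, adjusted p = 8.8e-08 by edgeR), with no overlap. KIF20A (0.38), CEP55 (0.32) and ANLN (0.28) rose as well, KIF23 rose by 0.15, and ECT2, which centralspindlin recruits to start the contractile ring, stood at -0.03 and did not pass. Of the chromosome condensation genes, TOP2A, the target of etoposide and doxorubicin, rose from 635 ± 16.3 to 741 ± 19.9 CPM, and the condensin subunits NCAPG and NCAPH did not pass, at 0.01 and -0.05.

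In SUDHL16 with all 6 libraries, no member was called (0 of 38, against 5.3% of all 15708 genes tested). Of the members, 29 were lower and 9 higher in resistant cells, 5 had an unadjusted p under 0.05, and DESeq2 called 2, NUSAP1 lower and TPX2 higher (against 11.3% of all genes by DESeq2). The median log2 fold change was -0.20, against -0.02 over all genes, with standard errors of 0.21 to 0.43, compared with 0.02 to 0.10 in SUDHL6. Groups did not overlap for 1 member that was higher, TPX2 (14.6% of all genes), and for 3 that were lower, BUB1B, CENPE and NUSAP1 (11.9%). A change of the size seen in SUDHL6 could not be resolved at this spread.

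The wide spread came from libraries of both groups. CE-26 lay below both other parental libraries for 36 of 38 members, and below all 3 resistant libraries for 20. Against the mean of CE-25 and CE-27, the median member stood at -0.88 in CE-26, -0.46 in CE-28, -0.10 in CE-29 and -0.74 in CE-30 on the log2 scale. CE-29 held the highest of the resistant values for 31 members and CE-30 the lowest for 27, so the resistant libraries also differed from each other as a set. The members took 0.649%, 0.249% and 0.621% of reads in CE-25, CE-26 and CE-27, and 0.443%, 0.562% and 0.389% in CE-28, CE-29 and CE-30. Read as a share of protein-coding reads only, CE-26 stood at 0.45% and still lay below CE-25 and CE-27, at 0.721% and 0.705%. On that measure CE-28, CE-29 and CE-30 stood at 0.526%, 0.624% and 0.442%, so CE-26 lay just above CE-30. The median change turned on single libraries of both groups: it was -0.37 without CE-26 and -0.39 without CE-29, and -0.05, -0.06, -0.11 and -0.08 without CE-25, CE-27, CE-28 and CE-30.

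**Figure D2:**
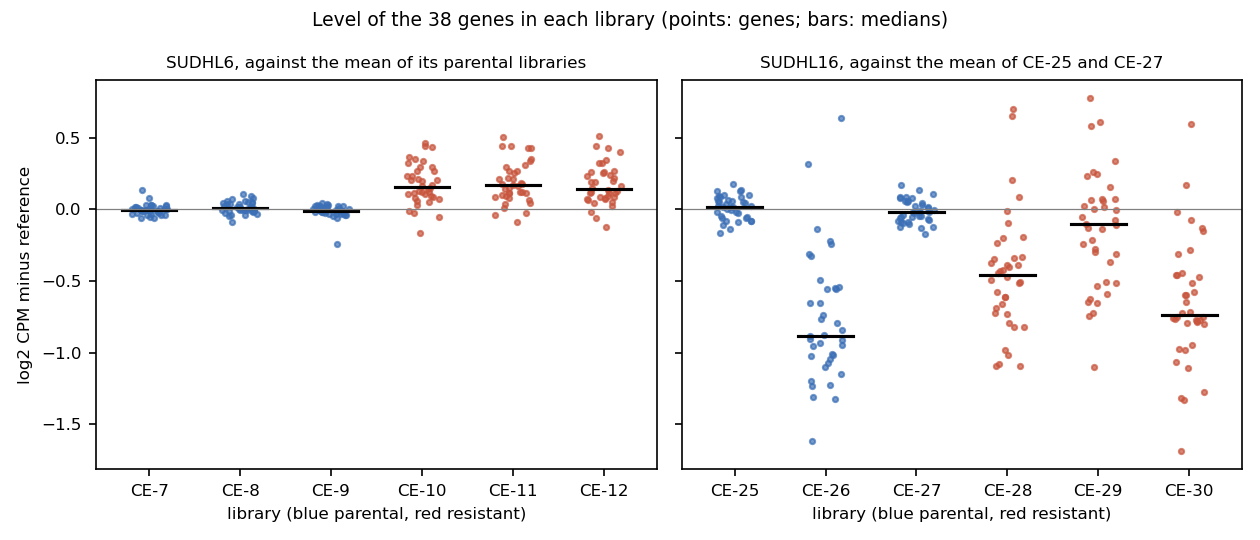
Log2 CPM of each of the 38 genes (points) in each library, minus the mean of the 3 parental libraries in SUDHL6 (left) and of CE-25 and CE-27 in SUDHL16 (right), with parental libraries in blue, resistant in red and medians as bars. The SUDHL6 resistant medians are 0.14 to 0.17, and in SUDHL16 the parental library CE-26 (-0.88) lies below the resistant libraries CE-28 (-0.46), CE-29 (-0.10) and CE-30 (-0.74).

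Without CE-26, 34 of 38 members were lower in SUDHL16 resistant cells, 5 of them called (13.2% of members, against 3.32% of all 16280 genes called lower and 10.0% called in either direction), with 11 at an unadjusted p under 0.05. The median was -0.37, against 0.05 over all genes. Groups did not overlap for 18 members that were lower (19.4% of all genes) and 1 that was higher (22.8%). Leaving out any of the other 5 libraries instead gave 0 calls, but only 1.67% to 2.7% of all genes were called in those fits. With all 6 libraries kept, voom with sample quality weights called the same 5 genes, with CCNB2 and TPX2 beside them (7 of 38, against 16.9% of all genes in that fit). These weights give less part to libraries that vary more, so that fit may come near to leaving out CE-26. The weight of CE-26 is not given here. By gene set enrichment, the study listed the Hallmark G2M checkpoint and mitotic spindle sets as upregulated in SUDHL16 resistant cells. It listed the mitotic spindle set in SUDHL6 as well. Those sets are not the same list as the 38 members. The study reports no removal of a library, while the counts above are without CE-26. Why the direction in SUDHL16 differs was not tested.

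The called genes act at the checkpoint, at the exit from mitosis, on the spindle, in cytokinesis and on chromosome structure. CDC20 measured 179, 78.9 and 191 CPM in CE-25, CE-26 and CE-27, and 86.6, 86.2 and 74.1 CPM in CE-28, CE-29 and CE-30 (scaled over all 6 libraries, as are the other values per library). The resistant values lay close together, well below CE-25 and CE-27, and CE-26 lay among them. The log2 fold change was -1.16 ± 0.20 (SE, adjusted p = 0.0089 by edgeR) without CE-26 and -0.87 ± 0.34 (adjusted p = 0.21) with it. BUB1B measured 234, 128 and 195 CPM in parental and 101, 128 and 66.3 CPM in resistant libraries, with CE-26 just above the highest resistant library. Its log2 fold change was -1.12 without CE-26 (adjusted p = 0.044 by edgeR) and -0.92 with it (0.17).

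NUSAP1, which bundles spindle microtubules, did not depend on CE-26 for its direction, as CE-26 held its highest value. It measured 258, 302 and 229 CPM in parental and 123, 155 and 116 CPM in resistant libraries, with no overlap. With all libraries the fitted ratio of resistant to parental was 0.50 (SE 0.25 on the log2 scale, adjusted p = 0.062 by edgeR), and its log2 fold change without CE-26 was -0.88 ± 0.22 (0.037). Some exons of NUSAP1 overlap those of OIP5 and OIP5-AS1 over 352 and 195 bases, and those of BUB1B overlap PAK6 and the read-through BUB1B-PAK6. How reads there were assigned is not given in the sources used here.

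KIF20A, the kinesin that carries the passenger complex to the central spindle, measured 78.8, 41.3 and 69.5 CPM in parental and 41.9, 44.9 and 30.6 CPM in resistant libraries, a log2 fold change of -0.91 without CE-26 (adjusted p = 0.043 by edgeR) and -0.70 with it (0.24). TOP2A measured 815, 367 and 761 CPM in parental and 369, 522 and 313 CPM in resistant libraries, a log2 fold change of -0.97 without CE-26 (adjusted p = 0.049 by edgeR) and -0.69 with it (0.38). For both genes CE-26 fell inside the resistant range. Per kilobase of exon, TOP2A was the most abundant member in SUDHL6 parental cells (99.7 ± 2.56 CPM per kb) and in SUDHL16 parental cells (102 ± 38.4), and TPX2 led in SUDHL16 resistant cells (112 ± 7.12 CPM per kb).

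**Figure D3:**
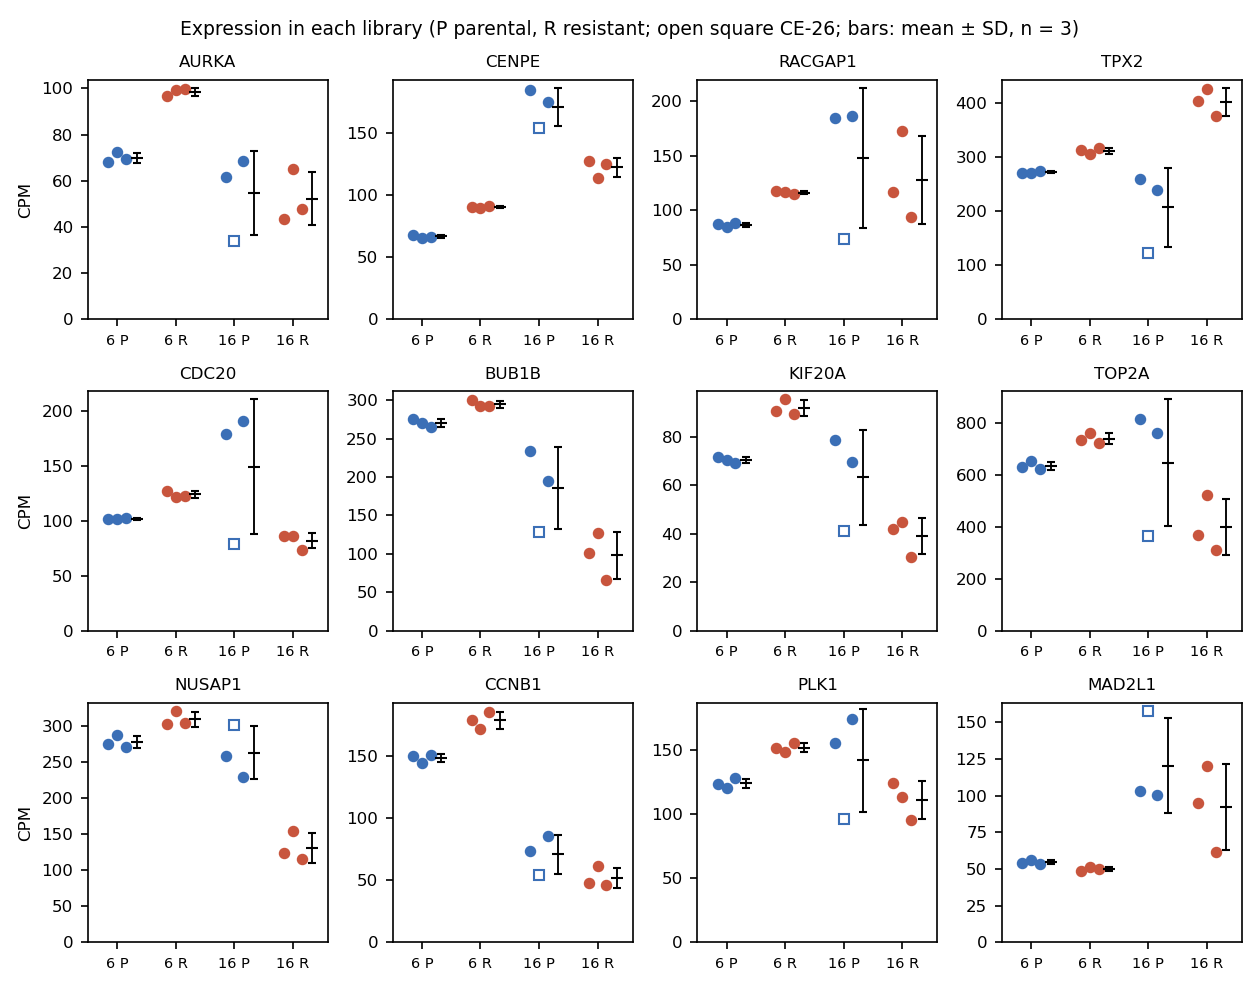
CPM of 12 members in each library of SUDHL6 (6) and SUDHL16 (16), parental (P, blue) and resistant (R, red), with CE-26 as an open square and bars for mean ± SD (n = 3). In SUDHL6 the groups are tight and apart for all 12 genes shown. In SUDHL16 CE-26 sits near or inside the resistant values for CDC20, BUB1B, KIF20A and TOP2A, above the other parental values for NUSAP1, and below both groups' other values for AURKA, RACGAP1 and TPX2.

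Members that did not pass gave the following values in SUDHL16, without CE-26 and then with it. Among the mitotic kinases and cyclins, CCNB2 had -0.75 (adjusted p = 0.065 by edgeR) and -0.58, CCNB1 -0.61 and -0.46, PLK1 -0.56 and -0.36, CDK1 -0.31 and -0.05, and AURKA -0.31 and -0.08. TTK had -0.34 and -0.05, KIF11 -0.37 and -0.09, HMMR -0.71 and -0.46, CENPE -0.54 and -0.49, and RACGAP1 -0.53 and -0.22. All of these lie below 0 in both fits and nearer to 0 with CE-26. For 5 members the sign itself turned on CE-26, among them KIF2C (-0.19 without, 0.06 with), CENPA (-0.11 and 0.14) and NUF2 (-0.19 and 0.02), and none of these passed in either fit.

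A few members went the other way. TPX2 measured 260, 123 and 239 CPM in parental and 404, 427 and 376 CPM in resistant libraries, so that every resistant library lay above every parental one. Its log2 fold change was 0.95 ± 0.33 (SE, adjusted p = 0.15 by edgeR) with all libraries and 0.70 ± 0.20 (0.069) without CE-26, and it was not called in either fit. BIRC5, which also blocks cell death, had 0.66 (adjusted p = 0.33 by edgeR) and 0.44 (0.40), with overlapping groups. ESPL1 and CDC25C were the remaining members above 0 without CE-26, at 0.11 and 0.02. The other 16 members, none of which passed, lay below 0 without CE-26, from PTTG1 at -0.56 and DLGAP5 at -0.51 to MAD2L1 at -0.13, KIF23 at -0.12 and SPC25 at -0.03.

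The change in SUDHL16 was tested against that in SUDHL6 as the interaction in a fit of all 12 libraries. Of the members, 2 were called, both with a lower change in SUDHL16 (against 7.16% of all 19621 genes called in either direction and 2.81% lower), and 7 had an unadjusted p under 0.05. NUSAP1 differed by -1.11 ± 0.21 (SE, adjusted p = 0.0067 by edgeR) and CENPE by -0.90 ± 0.20 (0.017). NUSAP1 was called in all 12 fits that left out 1 library, but CENPE in only 2, without CE-26 or without CE-30, with adjusted p-values of 0.00024 to 0.081. Without CE-26, 15 members were called, all lower in SUDHL16 (39.5% of members, against 13.4% of all genes and 5.45% called lower), with 24 at an unadjusted p under 0.05. They include the mitotic kinases AURKA (-0.84) and PLK1 (-0.90), the cyclins CCNB1 (-0.91) and CCNB2 (-0.96), and CDC20 (-1.48), BUB1B (-1.29), KIF20A (-1.34), TOP2A (-1.23), RACGAP1 (-0.99), HMMR (-0.82), DLGAP5 (-0.82), UBE2C (-0.61) and INCENP (-0.61) beside CENPE and NUSAP1. In the separate fits of each line, 31 of 38 members were above 0 in SUDHL6 and below 0 in SUDHL16 without CE-26. With all libraries 26 were. Kit and sequencer differed between the lines, and their part in this difference cannot be told apart from that of the line. The interaction fit also shares its estimate of spread between the lines, so SUDHL16 takes on part of the smaller spread of SUDHL6. Without CE-26 the median standard error of the members was 0.20, against 0.23 for SUDHL16 fitted alone. With all libraries it was 0.36 against 0.31, but 0.21 against 0.25 for NUSAP1 and 0.20 against 0.22 for CENPE. The interaction p-values may therefore be too small.

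Other cell-cycle genes were counted beside the members. Of 108 other mitotic genes in SUDHL6, 37 rose and 26 fell past the adjusted p, with a median log2 fold change of 0.04. That is 34.3% and 24.1% of the list, against 17.7% and 19.7% of all genes tested. Rises were thus more frequent in this list than over all genes, but not a feature of all mitotic genes. MKI67, a proliferation marker, measured 1272, 1274 and 1274 CPM in parental and 1206, 1224 and 1161 CPM in resistant libraries. Its log2 fold change was -0.09. Only NDC80, which encodes the kinetochore subunit that binds NUF2, was called (0.926% of the list, against 8.96% of all genes). Parental cells stood at 37.7 ± 1.88 CPM and resistant cells at 71.4 ± 1.48 CPM (log2 fold change 0.92, adjusted p = 2.0e-09 by edgeR). Of 47 S phase genes, which copy DNA before mitosis, 37 fell and 4 rose in SUDHL6, with a median of -0.19. That is 78.7% and 8.51% of the list, against 19.7% and 17.7% of all genes. MCM5, a subunit of the replicative helicase, was the only one called (2.13% of the list). It measured 264, 263 and 266 CPM in parental and 175, 174 and 173 CPM in resistant libraries (log2 fold change -0.60, adjusted p = 2.7e-10 by edgeR). The medians of the mitosis members and of the S phase genes thus stood on opposite sides of 0 in the same libraries.

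The transcription regulators of the mitotic program moved in both directions in SUDHL6. Of 16 genes, 4 rose and 7 fell past the adjusted p (25% and 43.8%, against 17.7% and 19.7% of all genes). None was called (0, against 8.96% of all genes), 12 had an unadjusted p under 0.05, and the median was -0.03. FOXM1 fell from 206 ± 1.78 to 153 ± 4.89 CPM and MYBL2 (B-MYB) from 466 ± 8.79 to 401 ± 6.41 CPM, genes named after their values were seen. Both are known activators of G2 and mitotic genes. FOXM1, on chromosome 12, lay among protein-coding genes within 5 Mb whose median log2 fold change was -0.37, close to its own -0.44, with 6 of 65 higher, while MYBL2 had neighbours at -0.01.

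In SUDHL16 with all libraries, 2 of the 108 other mitotic genes were called, both higher (1.85%, against 5.3% of all genes called in either direction). HASPIN, a kinase of histone H3, measured 31.7, 12.1 and 35.5 CPM in parental and 100.1, 108 and 107 CPM in resistant libraries (log2 fold change 1.96, adjusted p = 0.021 by edgeR). AURKB, the kinase of the passenger complex, measured 29.98, 18.6 and 25.8 against 58.5, 55.9 and 60.5 CPM (1.22, 0.025 by edgeR). Both were apart between the groups and remained called without CE-26. In that fit 3 of the list were called higher and 4 lower (6.48% of the list, against 10.0% of all genes). The 3 of smallest adjusted p without CE-26 were HASPIN, AURKB and NCAPH2 (-0.95, adjusted p = 0.023 by edgeR). The median of the list was -0.03 with CE-26 and -0.17 without. None of the 47 S phase genes was called with all libraries (8 at an unadjusted p under 0.05). Without CE-26 only TYMS was called, higher (2.13% of the list, log2 fold change 0.97, adjusted p = 0.036 by edgeR). The medians of the S phase genes were 0.01 and -0.13. None of the 16 regulators was called in either fit by edgeR, with 0 and 1 at an unadjusted p under 0.05 and medians of 0.07 and 0.10. AURKB acts with INCENP and BIRC5, which were not called in either fit and had values of -0.28 and 0.66 with CE-26.

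**Figure D4:**
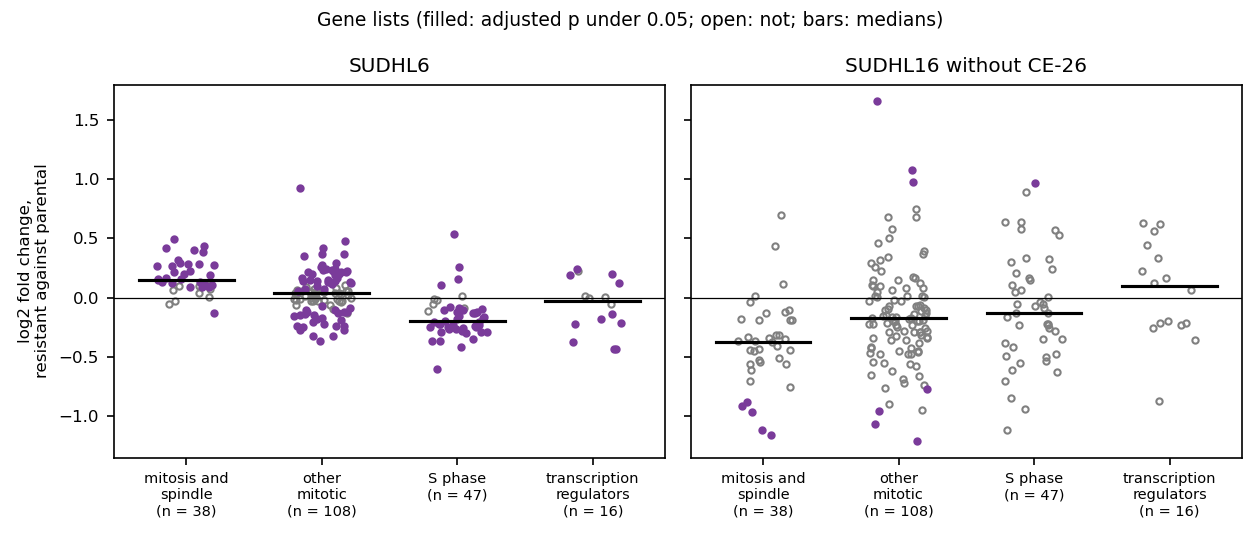
Log2 fold change, resistant against parental, of the 38 mitosis and spindle genes, 108 other mitotic genes, 47 S phase genes and 16 transcription regulators in SUDHL6 (left) and SUDHL16 without CE-26 (right). Points are genes, filled where the adjusted p is under 0.05, and bars are medians. In SUDHL6 the medians are 0.15, 0.04, -0.19 and -0.03, and in SUDHL16 without CE-26 -0.37, -0.17, -0.13 and 0.10.

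The position of the members was set beside their change, since genes next to each other can change together in a derived line. For each member the median log2 fold change of the protein-coding genes within 5 Mb was taken, members left out. In SUDHL6 these medians ran from -0.12 to 0.18, and 36 of 38 members lay above their neighbours. In SUDHL16 without CE-26 they ran from -0.52 to 0.88, and 35 of 38 members lay below their neighbours (28 of 38 with all libraries). The neighbours therefore spread more widely in SUDHL16, and most members lay lower than the genes around them.

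Some of the members with the strongest changes sat where the neighbours moved the same way. SUDHL16 values here are without CE-26 unless stated. On chromosome 15, BUB1B (chr15:40161023-40221123) had neighbours at a median of -0.52, with 15 of 84 higher, and NUSAP1 (chr15:41320794-41381050) at -0.47, with 17 of 88 higher, so many of these neighbours are shared. TOP2A (chr17:40388525-40417896) had neighbours at -0.42, with 45 of 158 higher. In contrast, CDC20 (chr1:43358981-43363203) and KIF20A (chr5:138178719-138187723) had neighbours at 0.13 and 0.01. On chromosome 20, TPX2 (chr20:31739271-31801805) had neighbours at 0.88, with 56 of 64 higher, and its own 0.70 lay below them. With all 6 libraries TPX2 stood at 0.95, above its neighbours at 0.72. UBE2C and AURKA on the same chromosome had neighbours at 0.67 and 0.70, and themselves stood at -0.43 and -0.31. HASPIN and AURKB on chromosome 17 had neighbours at 0.92 and 0.97, and NDC80 in SUDHL6 had 12 of 12 neighbours higher, at a median of 0.62. Whether copy number had a part in these values was not tested.

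**Figure D5:**
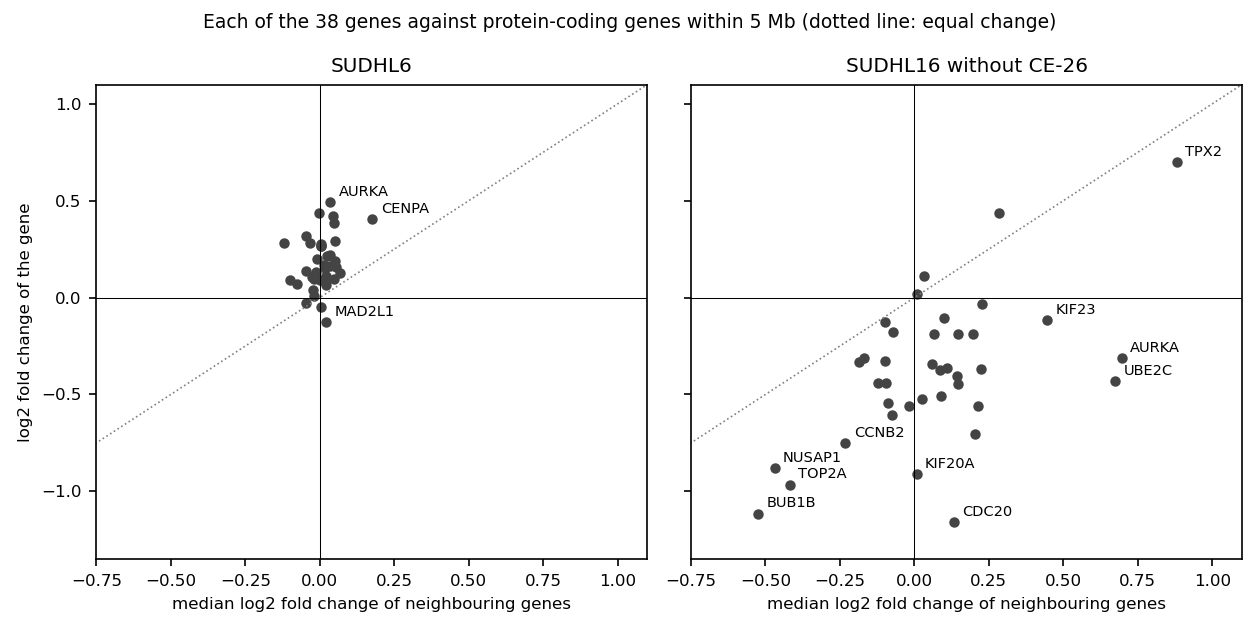
Log2 fold change of each of the 38 genes against the median of the protein-coding genes within 5 Mb, in SUDHL6 (left) and SUDHL16 without CE-26 (right), with a dotted line where both are equal. In SUDHL6 36 of 38 genes lie above the line. In SUDHL16 35 of 38 lie below it, with TPX2, AURKA and UBE2C beside neighbours at 0.67 to 0.88 and BUB1B, NUSAP1 and TOP2A beside neighbours at -0.52 to -0.42.

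Some counts carry uncertainty from sequence that members share with other genes. Exons of 14 members overlap those of another annotated gene, and 11 members have named copies. The pseudogene copies of UBE2C took 4.67% of the reads of UBE2C and its copies together, those of AURKA 1.34%, and those of the remaining members less than that.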

How the data were processed

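RNA-sequencing was analysed for 12 libraries, 3 from each of SUDHL6 and SUDHL16 parental and venetoclax-resistant cells, grouped by their labels. The authors trimmed adapters with TrimGalore, aligned reads to GRCh38 with HISAT2 and assembled transcripts with StringTie. They deposited whole-number counts per gene, without normalization. The counting tool, its annotation and its strand setting are not given in the sources used here. Symbols, positions and types came from GENCODE 44, which held 56558 of the 60675 identifiers, and unmatched identifiers were kept.

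Each line was fitted alone with edgeR 4.0.16 (R 4.3.3), with filterByExpr, TMM scaling and the two-sided quasi-likelihood test. Benjamini-Hochberg adjustment ran over all genes. A gene was called when it passed both an adjusted p of 0.05 and the 1.5-fold limit, and "rose" and "fell" refer to the adjusted p. The interaction came from one fit of 12 libraries. CPM are on the TMM scale. Standard errors are the log2 fold change divided by the root of F. Alternatives were DESeq2 1.42.0, limma 3.58.1 voom with sample quality weights, other scalings, no filter, protein-coding genes only, one fit of all 12 libraries and each library left out. The tests were run on simulated counts. No libraries were identical, and chi-square per gene between libraries of a group ran from 3.58 to 4.52 (SUDHL6) and from 22.1 to 367 (SUDHL16). Other steps used Python 3.11.15.

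The members and lists were chosen with earlier results of these data known. Genes given with values are those called, those of smallest adjusted p in each role, drug targets, the 3 called genes of smallest adjusted p in each further list, and up to 6 whose sign or call turns on CE-26, and others complete the account of a role. Total counts ranged from 4131927 to 40885665. For most members, counting error was small against the spread between SUDHL16 libraries. In SUDHL6 this did not hold for every member. CDK1 had 7018 to 8371 reads per SUDHL6 parental library and 207 ± 1.22 CPM (SD, n = 3), a spread no larger than counting error.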

Additional observations from a re-analysis of the deposited data

Results flagged for a closer look

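The change of 2 members differed between the lines by the interaction test of edgeR in the fit of all 12 libraries. That is 5.26% of members, against 7.16% of all genes called in either direction and 2.81% called lower. CENPE rose in SUDHL6 resistant cells and had a lower value in each SUDHL16 resistant library than in any SUDHL16 parental library, and the difference, SUDHL16 minus SUDHL6, was -0.896 on the log2 scale. NUSAP1 differed in the same direction, by -1.11, with the groups apart in both lines. Their adjusted p-values and the effect of leaving out libraries stand in the report. No explanation was tested.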

How the results depend on the processing

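No paired analysis was possible because the labels give no replicate numbers. In SUDHL6, 36 of 38 members kept their sign in all 13 alternatives, and 0 members were called in any. The number past the adjusted p (an outcome added after the data were seen) was 27 to 33, except 0 in the fit of all 12 libraries, where the larger spread of SUDHL16 is shared. The median was 0.17 with upper-quartile scaling and 0.13 to 0.18 with 1 library left out. In SUDHL16, 23 of 38 kept their sign. Called members numbered 2 with DESeq2 (11.3% of all genes called), 1 with upper-quartile scaling (4.89%), 1 among protein-coding genes only (8.01%), 7 with voom (16.9%) and 3 in the fit of all 12 libraries (14.6%). With 1 library left out, called members numbered 0 to 5 (1.67% to 10.0% of all genes). Members past the adjusted p numbered 2, 1, 1, 7 and 4 in the same order and 0 to 5 with 1 left out. Interaction calls numbered 7 with DESeq2 (14.0% of all genes), 8 with upper-quartile scaling (7.99%), 1 with library totals (6.1%), 0 without the filter (1.83%, with 4 members at an unadjusted p under 0.05), 5 among protein-coding genes only (12.5%) and 15 with voom (13.9%). With 1 library left out, interaction calls numbered 1 to 15 (4.09% to 13.4% of all genes). The causes were not tested. Library totals moved the median of all SUDHL16 genes by 0.13 and omitting the filter by -1.16. In the interaction DESeq2 moved it by -0.10, upper-quartile scaling by -0.15 and omitting the filter by -0.91.

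Signs that turned in SUDHL16 were of members that did not pass. With library totals, CDK1 was at 0.015, BUB1 at 0.067 and TTK at 0.0091. Without the filter, CDK1 was at 0.034, AURKA at 0.0082, BUB1 at 0.070 and TTK at 0.031. With DESeq2, NUF2 was at -0.0030 and KIF23 at -0.0049. With upper-quartile scaling, NUF2 was at -0.068, KIF2C at -0.021 and KIF23 at -0.071. Among protein-coding genes only, NUF2 was at -0.036 and KIF23 at -0.038. With voom, CENPA was at -0.051, NUF2 at -0.14, SPC25 at -0.0011, KIF2C at -0.11 and KIF23 at -0.090. With 1 library left out, SUDHL16 values ran from -0.47 to 0.13 for CDK1, -0.35 to 0.090 for CCNA2, -0.31 to 0.12 for AURKA, -0.19 to 0.094 for BUB1, -0.44 to 0.044 for BUB3, -0.34 to 0.23 for TTK, -0.11 to 0.36 for CENPA, -0.19 to 0.20 for NUF2, -0.13 to 0.37 for SPC25, -0.37 to 0.17 for KIF11, -0.19 to 0.24 for KIF2C, -0.12 to 0.17 for KIF23, -0.44 to 0.046 for ECT2, -0.45 to 0.12 for ANLN and -0.36 to 0.10 for NCAPH. In SUDHL6 they ran from -0.018 to 0.17 for CDC25C and from -0.0033 to 0.015 for NCAPG.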
